A study of Caenorhabditis elegans with 8 samples.

Results

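The genes described here are asfl-1 and unc-85, the 2 Caenorhabditis elegans genes that encode homologues of the histone chaperone ASF1, out of 20541 genes listed. asfl-1 was selected on its measured FPKM, which was lower in the strain HC125 than in the wild type N2 in both experiments, and unc-85 was taken by name as its paralogue. The lower value of asfl-1 is therefore described below without a test. Polyadenylated RNA came from whole young adult worms grown together from a timed egg lay. Of the 8 libraries, 4 were from N2 and 4 from HC125. According to the design text, the study set wild-type worms against worms with Psid-1::gfp, a transgene in which the promoter of sid-1 drives green fluorescent protein, and HC125 is read as the transgenic strain because N2 is the wild type. Replicates 1 and 2 of each strain were paired-end libraries from an unstranded kit, called the unstranded experiment below, and replicates 3 and 4 were single-end libraries from a stranded kit, called the stranded experiment. No allele, agent or other treatment is named for either strain, and the labels do not tell whether replicates are separate cultures, so the p-values of the authors cover differences among libraries that could be technical only.

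Each experiment has 1 deposited table with 1 level per gene and strain in FPKM, which counts fragments per kilobase of transcript relative to all mapped fragments, and this level pools the libraries of that strain. No spread between libraries can be given, and the number of reads is unknown. Dividing a log2 ratio by the test statistic of the authors gives the standard error that this statistic implies, and that error is printed after ±. Values are given as N2 against HC125, with the unstranded experiment first. A nominal p is one not adjusted for the number of genes. In both tables sid-1 had a lower value in HC125. This gene, which encodes the double-stranded RNA channel whose promoter the transgene carries, measured 31.9 FPKM in N2 against 2.11 in HC125 in the unstranded experiment, then 12.9 against 0.818 FPKM in the stranded experiment.

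ASF1 binds a dimer of histones H3 and H4 and passes it on for nucleosome assembly. In yeast and mammals it hands histones to the CAF-1 complex behind replication forks and to HIRA outside replication. It works beside NASP and the acetyltransferase HAT1, which handle newly made histones, and it is a substrate of Tousled-like kinases. In C. elegans, unc-85 is known for its role in the divisions of post-embryonic neuroblasts, and its mutants move in an uncoordinated way. asfl-1 is named for its likeness to ASF1.

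The gene models of the pair share a layout that the choice of genes did not use. In the WBcel235 annotation, asfl-1 (WBGene00007277) lies on the plus strand of chromosome I from 9658274 to 9660080, and unc-85 (WBGene00006817) on the plus strand of chromosome II from 4702069 to 4703219. Each has 1 annotated transcript, of 991 bases in asfl-1 and 985 bases in unc-85. The first exon holds 112 coding bases in both genes, and the penultimate exon holds 151 in both. Between them, asfl-1 has 2 exons with 464 coding bases together, and unc-85 has 1 exon with 467. The coding part of the last exon differs most, at 8 bases in asfl-1 and 95 bases in unc-85. The predicted proteins have 245 residues for asfl-1 and 275 for unc-85. The annotated 3′ UTR is 253 bases in asfl-1 and 157 bases in unc-85, and neither has an annotated 5′ UTR.

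**Figure D1:**
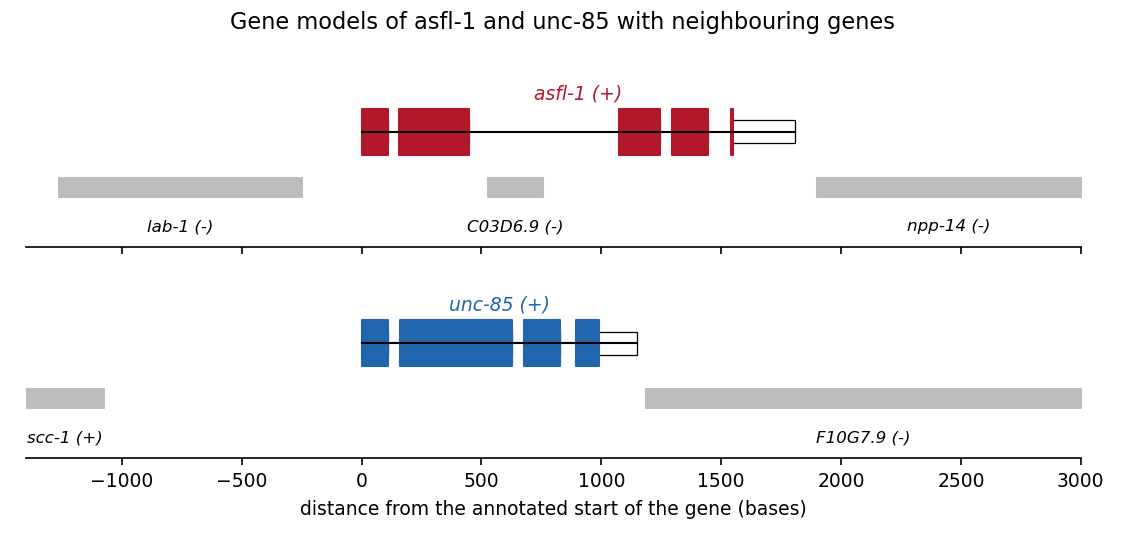
Annotated models of asfl-1 (red) and unc-85 (blue); the horizontal axis is the distance in bases from the annotated start, filled boxes are coding exon parts, open boxes the 3′ UTR, and grey bars neighbouring genes with their strand, cut at the edge of the plot. asfl-1 has 5 exons and a gene of the other strand inside its second intron, whereas unc-85 has 4 exons and ends 34 bases before F10G7.9.

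The pair also differs in what lies beside it. A small protein-coding gene on the minus strand, C03D6.9, lies from 9658801 to 9659028, inside the second intron of asfl-1. C03D6.9 was not analysed here. It overlaps no exon of asfl-1, so reads from the spliced RNA of asfl-1 do not share bases with it. By contrast, unc-85 ends 34 bases before the end of the convergent gene F10G7.9, and both tables give these 2 genes the same locus. In the unstranded libraries, reads that run past the annotated end of either gene could not be assigned by strand, and the part of this in the unc-85 values was not tested.

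asfl-1 had a lower value in HC125 in both experiments. In the unstranded experiment it measured 77.1 FPKM in N2 against 44.6 in HC125. In the stranded experiment it measured 70.5 FPKM in N2 against 43.2 in HC125. HC125 thus held 57.9% of the N2 level in the first and 61.3% in the second. As a log2 ratio with its implied error, this was -0.79 ± 0.44 with unstranded and -0.71 ± 0.28 with stranded libraries. The 4 values of asfl-1 fell into a pair of N2 values and a pair of lower HC125 values that did not overlap. This separation is part of how the gene was chosen and is no support for its difference. How many of all genes separate in this way was not counted. In whole-worm RNA, fewer cells that express a gene and less of its RNA per cell cannot be told apart.

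unc-85 had nearly the same value in both strains within each experiment. It measured 83.2 FPKM in N2 against 85.9 in HC125 in the unstranded experiment. In the stranded experiment it measured 129 FPKM in N2 against 135 in HC125. The log2 ratio was 0.05 ± 0.65 (implied SE) and 0.07 ± 0.35 (implied SE), so the difference was far smaller than its error in each. The authors' deposited tables gave unc-85 p = 0.918 in the unstranded and p = 0.785 in the stranded experiment, with a q of 1.00 in both. The 95% interval of the ratio ran from 0.429 to 2.48 in the unstranded experiment and from 0.651 to 1.69 in the stranded experiment. Each interval includes both lower and higher values in HC125, so neither direction is excluded for unc-85. The intervals leave out the error of asfl-1, so they do not compare the 2 genes. The log2 ratio of unc-85 differed by 0.02 ± 0.73 between the experiments, far less than its error, and did not pass a two-sided z test adjusted over 12921 genes. With an error of this size, not passing does not show that the experiments give the same ratio.

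**Figure D2:**
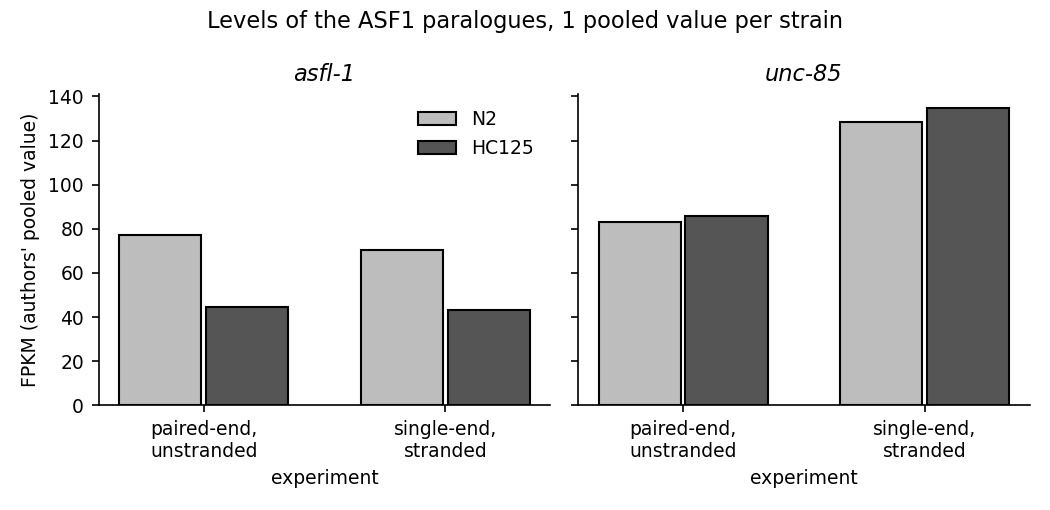
FPKM of asfl-1 (left) and unc-85 (right) by experiment; each bar is the authors' single value for 1 strain, light for N2 and dark for HC125, with no error bar because the libraries were pooled. asfl-1 goes from 77.1 to 44.6 and from 70.5 to 43.2 FPKM, while unc-85 stays at 83.2 and 85.9, then 129 against 135 FPKM.

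Set against each other, the paralogues were almost level in wild-type worms in one experiment and apart in the other. asfl-1 stood at 0.926 times the FPKM of unc-85 in N2 in the unstranded experiment and at 0.548 times in the stranded experiment. In HC125 the same quotient was 0.519 and 0.321. The order of the levels was the same in all 4 pooled values, with unc-85 above asfl-1. In N2 of the unstranded experiment, unc-85 and asfl-1 stood at 83.2 and 77.1 FPKM. Since no error is given for a level, whether they differ cannot be tested. The log2 ratio of asfl-1 minus that of unc-85 was -0.83 ± 0.78 in the unstranded experiment and -0.77 ± 0.45 in the stranded experiment, with the error taken from both implied errors. It is given without a test, since the pair was chosen for the lower value of asfl-1.

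The summed FPKM of the pair differed less between the strains than asfl-1 alone. It was 160 in N2 and 131 in HC125 in the unstranded experiment, and 199 and 178 in the stranded experiment. HC125 held 81.4% and 89.4% of the N2 sum. asfl-1 made up 48.1% of the sum in N2 and 34.2% in HC125 in the unstranded experiment, and 35.4% and 24.3% in the stranded experiment. Most of the gap between experiments came from unc-85, whose N2 value in the stranded table was 1.54 times that in the unstranded table, against 0.914 times for asfl-1. The tables were normalized separately, so these last quotients describe the tables and not the worms.

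Both genes lay in the upper part of the range of levels. The N2 value of asfl-1 exceeded that of 82.8% of tested genes in the unstranded and 83.2% in the stranded experiment, and its HC125 value exceeded 72.3% and 75.7%. For unc-85 the N2 value exceeded 84.2% and 90.6%, and the HC125 value 85.2% and 91.1%.

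Neither gene passed the threshold of the authors' test. At a deposited q of 0.05 or less, 0 of the 2 genes were called in either of the authors' deposited tables, beside 0.212% of 15114 tested genes in the unstranded and 0.122% of 13150 in the stranded experiment. At a nominal p under 0.05 the authors' deposited tables list 1.28% and 2.39% of tested genes. No count for asfl-1 is set beside these shares, because the same contrast chose the gene. The ranks and counts that follow use the same ratios that chose asfl-1. They describe its place among the genes and are no support for its difference. The unstranded log2 ratio of asfl-1 was above that of 2.54% of tested genes, and the stranded one above that of 3.06%. Among 12954 genes tested in both tables, 47 others had a ratio at or below that of asfl-1 in both. With 10 FPKM or more in N2 in both tables, 6508 genes were left, and 9 others had ratios that low in both: sid-1 and its neighbours C04F5.8 and C04F5.9, then npl-4.1, ZK673.1, F31E3.6, F23F12.12, F12A10.1 and C06B3.6. asfl-1 was at a higher FPKM in N2 than any of these 9 in the unstranded experiment, and only ZK673.1, at 91.2 FPKM, was above it in the stranded experiment.

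**Figure D3:**
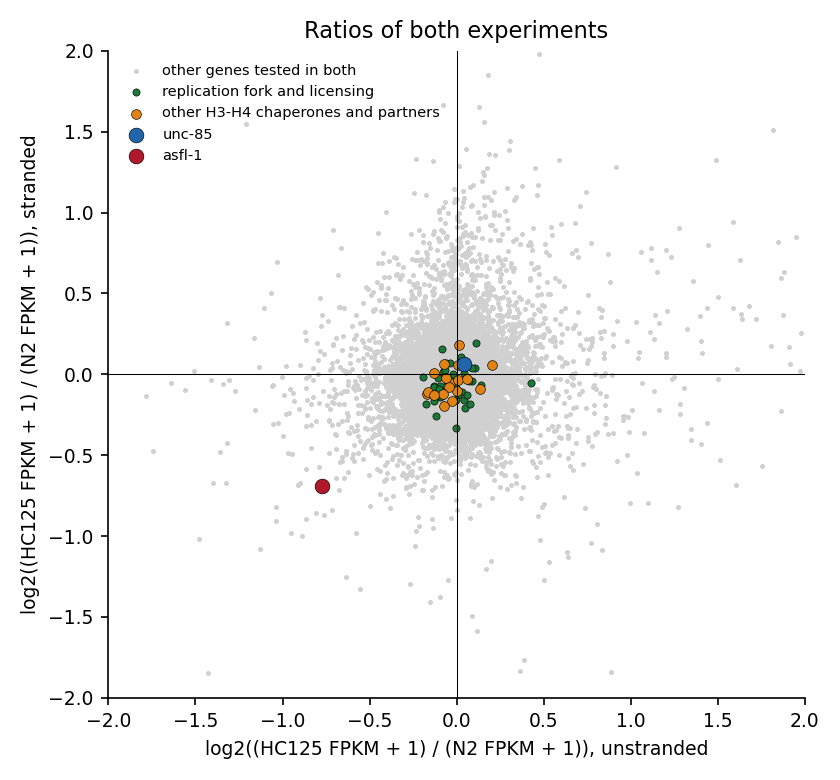
Ratios of HC125 over N2 on the log2(FPKM + 1) scale, unstranded experiment on the horizontal and stranded on the vertical axis; each point is 1 of 12954 genes tested in both tables, and 47 lie outside the plotted range. asfl-1 (red) lies at -0.78 and -0.69, where both ratios are negative, while unc-85 (blue), the other chaperones (orange) and replication genes (green) lie near the centre.

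The other H3-H4 chaperones and their partners were at close levels in both strains. All 20 listed genes were tested in both tables. Apart from asfl-1, 0 of 19 were called at a q of 0.05 in the authors' deposited tables. A nominal p under 0.05 was given to 0 of 19 in either. Among all tested genes, 0.212% and 0.122% were called, and 1.28% and 2.39% had such a p. A count of 0 of 19 is thus near the share over all genes. The lowest deposited p of the 19 was 0.525 in the unstranded (nap-1) and 0.303 in the stranded experiment (nasp-1). Their log2 ratios ran from -0.17 to 0.20 in the unstranded and from -0.20 to 0.19 in the stranded experiment. Implied errors of these ratios reached 0.67 and 0.35. On the log2(FPKM + 1) scale, where a gene at a low level shows less than its full change, the median of the 19 was -0.04 and -0.05, beside -0.03 and -0.04 over all tested genes. asfl-1 had the lowest ratio of the 20 in each experiment, and nothing is read from this rank because its lower value chose the gene. unc-85 ranked 15th of 20 by level in N2 and 14th in HC125 in the unstranded experiment, and 6th in both strains in the stranded experiment. asfl-1 ranked 16th in N2 and 19th in HC125, then 12th and 16th.

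**Figure D4:**
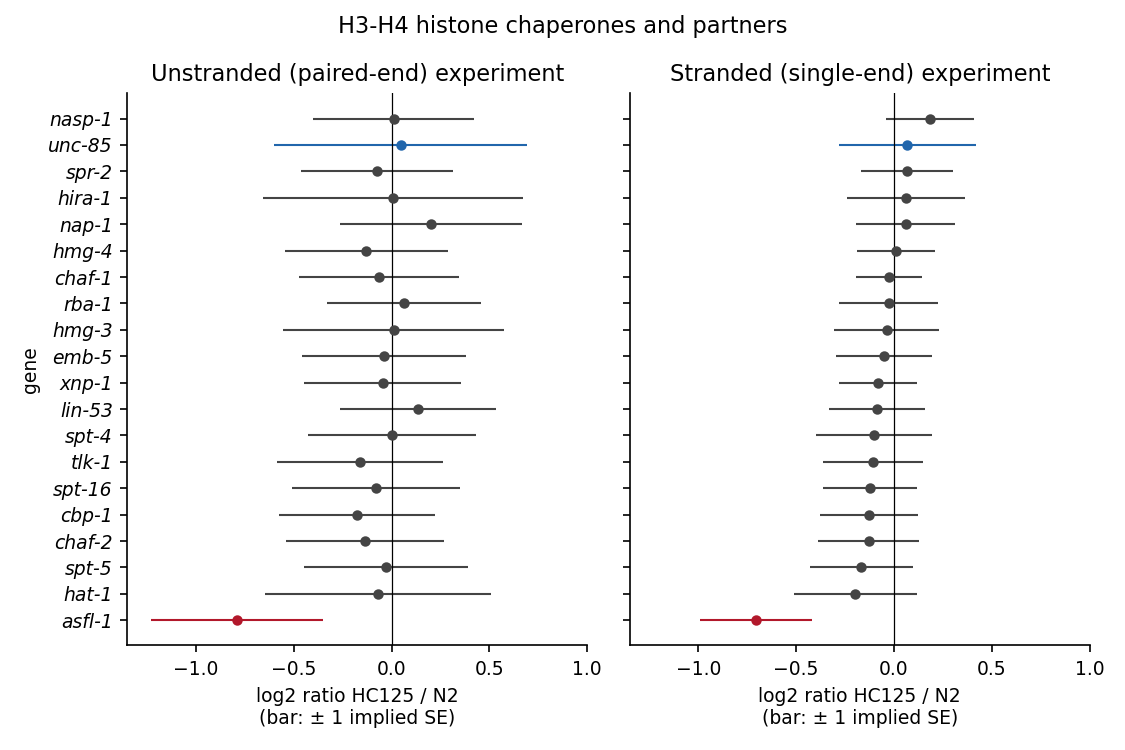
Log2 ratio of HC125 over N2 (horizontal axis) for the 20 genes of the chaperone list, unstranded experiment on the left and stranded on the right; points are the ratios and bars 1 implied standard error to each side. asfl-1 (red) is at -0.79 and -0.71, and the other 19, unc-85 (blue) among them, lie between -0.20 and 0.20 with bars that cross 0.

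The chaperones that receive histones from ASF1 differed by less than their error between the strains. chaf-1, the large subunit of CAF-1, measured 130 FPKM in N2 against 124 in HC125, then 28.4 against 27.9 FPKM in the stranded experiment. chaf-2, its second subunit, measured 72.4 against 66 FPKM, then 90.2 against 82.4 FPKM. rba-1 and lin-53 encode the RbAp46/48-type histone-binding subunits found in several chromatin complexes, and their log2 ratios were 0.06 ± 0.39 and 0.14 ± 0.40 in the unstranded and -0.03 ± 0.25 and -0.09 ± 0.25 in the stranded experiment (implied SE). The HIRA homologue hira-1, listed in the tables as K10D2.1, measured 52.8 against 53.1 FPKM, then 14.7 against 15.4 FPKM. Its level relative to asfl-1 thus differed between the tables more than between the strains.

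The genes that act on histones before ASF1, or on ASF1 itself, were also near 0 on the log2 scale. nasp-1, which keeps the soluble pool of H3 and H4 in other animals, measured 171 against 173 FPKM, then 135 against 153 FPKM. hat-1, the acetyltransferase of newly made H4, measured 147 against 140 FPKM, then 211 against 184 FPKM. tlk-1, the Tousled-like kinase, measured 137 against 123 FPKM, then 92.6 against 86 FPKM. cbp-1, a histone acetyltransferase of the CBP/p300 type, measured 42.2 against 37.4 FPKM, then 22.6 against 20.7 FPKM.

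The other listed chaperones and partners, among them genes that work with transcription, were likewise uncalled. The FACT subunits spt-16 (listed as F55A3.3), hmg-3 and hmg-4 had log2 ratios of -0.08, 0.01 and -0.13 in the unstranded and -0.13, -0.04 and 0.01 in the stranded experiment. emb-5, the SPT6 homologue, measured 118 against 114.8 FPKM, then 61.4 against 59.2 FPKM. spt-4 and spt-5 encode the elongation factor DSIF, and their log2 ratios were 0.00 and -0.03, then -0.10 and -0.17. nap-1, an H2A-H2B chaperone and the most abundant gene of the list, measured 603 against 693 FPKM, then 602 against 627 FPKM. The log2 ratios of spr-2, of the SET family, were -0.07 and 0.06. Those of xnp-1, the ATRX homologue, were -0.05 and -0.08.

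Genes of the replication fork, where CAF-1 and ASF1 act together, were uncalled in both experiments. All 46 matched genes of the list were tested in both tables. The authors' deposited tables listed 0 of them at a nominal p under 0.05, beside 1.28% and 2.39% of all tested genes. Ratios of the 46 on the log2(FPKM + 1) scale ran from -0.19 to 0.43 in the unstranded and from -0.33 to 0.19 in the stranded experiment. Their median on this scale was -0.04 and -0.07, beside -0.03 and -0.04 over all tested genes. A lower value in HC125 was seen in 31 of 46 and 35 of 46, while the median over all tested genes was itself below 0. The sliding clamp pcn-1, which recruits CAF-1, was at 319 FPKM in both strains, then 1158 against 919 FPKM in the stranded experiment. The authors' deposited table gave pcn-1 p = 0.0666 there. The ribonucleotide reductase subunit rnr-2 measured 539 against 538 FPKM, then 821 against 774 FPKM. The single-strand binding subunit rpa-2 measured 282 against 297 FPKM, then 416 against 404 FPKM.

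The clients of the chaperones were measured with unequal confidence. Of 9 genes for H3 variants, centromeric H3, its deposition factor and H2A.Z, 8 were tested in the unstranded and 9 in the stranded experiment, with 0 at a nominal p under 0.05 in the authors' deposited tables. This stands beside 1.28% and 2.39% of all tested genes. The medians of the listed genes were -0.03 and -0.05. The H3.3-type gene his-72 measured 220 against 212 FPKM, then 728 against 679 FPKM. his-74, another H3 variant gene, measured 248 against 272 FPKM, then 328 against 355 FPKM. The H2A.Z gene htz-1 measured 375 against 379 FPKM, then 751 against 710 FPKM.

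Of 31 core H3 and H4 genes, 17 were tested in each table and 13 were listed at 0 in both strains of both tables. These genes are near copies of one another and most of their RNA lacks a poly(A) tail, so their values are uncertain. The median of the 17 was 0.33 in the unstranded and -0.05 in the stranded experiment. With a pseudocount of 0.1 in place of 1, the unstranded median was 0.60. In the unstranded experiment 2 of the 17, his-45 and his-64, had a nominal p under 0.05 in the authors' deposited table. This stands beside 1.28% of all tested genes, and both were higher in HC125. his-64 measured 6.75 against 15.8 FPKM there, then 4.99 against 9.30 FPKM in the stranded experiment. his-45 measured 1.66 against 4.55 FPKM, then 1.91 against 1.80 FPKM. Neither was called at a q of 0.05. Of the 17, 12 had a higher value in HC125 in the unstranded and 6 in the stranded experiment. The most abundant, his-37, measured 86.6 against 85.9 FPKM, then 181 against 208 FPKM. his-60 measured 18.6 against 31.1 FPKM, then 19.4 against 22.1 FPKM. The log2 ratios of his-67 were 0.54 and -0.18.

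The genes beside asfl-1 and unc-85 had levels close to those of the wild type. lab-1, which starts 250 bases to the left of asfl-1 on the other strand and encodes a protein of meiotic chromosome cohesion, measured 118 FPKM in N2 against 100.3 in HC125, then 72.1 against 68.8 FPKM. The nucleoporin gene npp-14, 93 bases to the right, measured 80.4 against 77.5 FPKM, then 25.8 against 26.1 FPKM. The authors' deposited tables gave lab-1 p = 0.444 and p = 0.722, and npp-14 p = 0.855 and p = 0.906. Beside unc-85, the cohesin subunit gene scc-1 measured 43.1 against 42.2 FPKM, then 29.6 against 28.2 FPKM. F10G7.9, which shares the locus of unc-85 in the tables, measured 53.9 against 53.5 FPKM, then 27.1 against 29 FPKM.

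Markers of the cell types in a young adult were compared beside these values. All 20 germ cell genes were tested in both tables and 0 had a nominal p under 0.05 in the authors' deposited tables. Their summed FPKM was 2513 in N2 and 2460 in HC125, and 1915 and 1793 in the stranded experiment. A higher value in HC125 was seen in 8 of these 20 genes in the unstranded and 5 in the stranded experiment. gld-1, an RNA-binding regulator of meiotic entry, measured 648 against 612 FPKM, then 435 against 398 FPKM. Also among the most abundant of these markers, glh-1 measured 219 against 253 FPKM, then 265 against 227 FPKM. pgl-1 measured 263 against 268 FPKM, then 183 against 169 FPKM. Oocyte and eggshell genes had lower values in HC125 in 19 of 20 and 16 of 19 tested genes. How common a lower value was among all tested genes was not counted. A nominal p under 0.05 was listed for 0 of these oocyte and eggshell genes, with the same shares over all tested genes as above. Their medians were -0.13 and -0.07, beside -0.03 and -0.04 over all tested genes. Their summed FPKM was 8863 and 8062, then 13519 and 12777, and cpg-2, an eggshell proteoglycan, measured 1382 against 1211 FPKM, then 2241 against 2013 FPKM.

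Sperm markers had mostly lower values in HC125 in the unstranded and mostly higher values in the stranded experiment. Of 31 genes, 30 were tested in the unstranded experiment, where 20 had a lower and 10 a higher value in HC125 and the median was -0.03, as over all tested genes. In the stranded experiment 21 were tested, 16 with a higher and 5 with a lower value. Their median was 0.23, beside -0.04 over all tested genes, and 0.37 over sperm genes at 1 FPKM or more. Their summed FPKM was 313 and 304, then 89.0 and 126. In the authors' deposited tables, 0 of 30 sperm genes had a nominal p under 0.05 in the unstranded experiment, beside 1.28% of tested genes. In the stranded experiment 3 of 21 had one, beside 2.39% of tested genes. These were the sperm chromatin genes spch-1, spch-2 and spch-3, all higher in HC125. spch-3 measured 8.14 against 15.8 FPKM there, and 16.5 against 15.6 FPKM in unstranded libraries. The sperm genes spe-9, spe-19, spe-38, spe-42, fer-1 and try-5 were under 1 FPKM in all 4 values. Other listed sperm genes were higher, with spch-1 at 29.3 FPKM in N2 of the unstranded experiment. The part of the sperm, oocyte and germ cell markers in the values of asfl-1 was not tested.

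Neuron markers, set beside unc-85 for its known role in neuroblasts, had summed FPKM of 434 in N2 and 417 in HC125, then 227 and 244. All 19 were tested in both tables, with medians of -0.03 and -0.02, and 0 had a nominal p under 0.05 in the authors' deposited tables. snb-1, the synaptobrevin of synaptic vesicles, measured 170 against 163 FPKM, then 83.1 against 93.5 FPKM. Intestine markers had medians of -0.15 and -0.02 with 0 of 9 at that p. Muscle markers had lower values in HC125 in 11 of 12 genes in the unstranded experiment and higher values in 10 of 12 in the stranded experiment. Their medians were -0.17 and 0.14, beside -0.03 and -0.04 over all tested genes. They held the only calls of the 10 lists, the pharyngeal myosins myo-1 and myo-2, called lower in the unstranded table, and the body wall myosin unc-54, called higher in the stranded table. Over all lists without asfl-1, the authors' deposited tables gave a nominal p under 0.05 to 4 of 200 tested genes in the unstranded and 4 of 191 in the stranded experiment, beside 1.28% and 2.39% of all tested genes. The median over these genes was -0.04 and -0.03.

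The genes whose 4 values most resembled those of asfl-1 were T06D10.3, pdl-1, C36A4.11, catp-3 and K09C6.9. Likeness was the Euclidean distance between log2(FPKM + 1) values centred on each gene's mean, over 4 pooled values and 12005 other genes with a mean of 1 FPKM or more. The distances ran from 0.140 for T06D10.3 to 0.247 for K09C6.9. All 5 were at far lower levels than asfl-1: T06D10.3 measured 7.78 FPKM in N2 against 4.17 in HC125, then 7.95 against 3.90 FPKM in the stranded experiment. The genes most like unc-85 were eef-1B.1, eef-1B.2, djr-1.1, ZK688.7 and vab-2, at distances from 0.0168 to 0.0340. djr-1.1 was closest to unc-85 in level too, at 79.2 and 83.6 FPKM, then 123 against 130 FPKM. With 4 values per gene, such likeness describes these tables only.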

How the data were processed

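The 8 libraries form 4 groups, N2 and HC125 in a paired-end (unstranded) and a single-end (stranded) experiment. TopHat2 2.0.1 and Cufflinks 2.2.1 are named, per the submitters' processing notes, with no order or settings. The build is not given in the sources used here. Per the file headers, each table has the layout of Cuffdiff. Its FPKM values were computed by the authors, 1 per strain over its libraries, normalized for transcript length and depth. The authors also deposited a score per gene, their test statistic, with a p-value and a q-value. The depth is unknown, so no counting interval is given.

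From these, ratios of HC125 over N2 were computed with Python 3.11.15, pandas 2.3.3 and scipy 1.17.1. The implied standard error is the log2 ratio divided by the test statistic; 95% intervals use a normal approximation. A pseudocount of 1 was used for list medians. Genes without a completed test were left out. Gene models are from Ensembl (WBcel235). In the tables, 5767 of 20194 matched loci start 1 base before that annotation and 389 at the same base, so annotation coordinates are printed. Of the listed genes, 207 were found by symbol, 10 by gene ID and 2 were not matched. Named genes were the pair, all chaperones, called list genes or else the 3 most abundant, annotated neighbours and the 5 most similar genes. Of the 3 most abundant, only 1 is printed for oocyte, sperm and neuron markers and none for intestine markers. The genes with ratios as low as asfl-1 and those at an unadjusted p were chosen after their values were seen. Members and lists were chosen with earlier results of these data known. Alternatives were pseudocounts of 0.1, 0.5 and 1, centring, a filter at 1 FPKM, an error implied by the p-value and a q of 0.01.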

Additional observations from a re-analysis of the deposited data

How the results depend on the processing

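Pseudocounts of 0.1, 0.5 and 1 and centring on the median ratio moved the log2 ratios of asfl-1 and unc-85 by less than 1 implied error. A pseudocount cannot turn the direction of a single ratio, and centring leaves the difference between the genes as it is. asfl-1 ranged from -0.79 to -0.75 with unstranded and -0.71 to -0.66 with stranded libraries, and unc-85 from 0.05 to 0.08 and 0.07 to 0.11. The error implied by the deposited p was smaller than that implied by the test statistic, at 0.32 and 0.20 for asfl-1 and 0.45 and 0.25 for unc-85. At a q of 0.01 the authors' deposited tables call 0 genes in either experiment, in place of 32 and 16, since their lowest q values lie above that threshold; 193 and 314 genes had a nominal p under 0.05. With genes at 1 FPKM or more, 29 and 15 were called. No paired analysis was possible because the tables hold 1 pooled value per strain, and for the same reason no replicate could be left out. The missing read counts limit what the levels can show.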
